A study of Homo sapiens with 4 samples.

Results

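The Polycomb genes described here are subunits of the Polycomb repressive complexes PRC1 and PRC2, their accessory proteins, and regulators that work against them. Their names came from a list made with earlier results of these data known. Every probe set of the array whose only gene symbol in the platform annotation is one of those names was taken. Of the 31 listed genes, 28 had at least 1 such probe set, with 89 probe sets between them, out of 19775 genes and 54613 probe sets in all. BMI1 was represented only by a probe set shared with another gene symbol, RNF2 and CBX8 were matched to no probe set, and these 3 genes were not analysed here.

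Expression was measured on 4 Affymetrix 3′ arrays of HuCCT1, an established human cholangiocarcinoma (bile duct cancer) cell line. The series asked what loss of ARID1A, a DNA-binding subunit of the SWI/SNF chromatin remodelling complex, does to gene expression in this cancer. A pair of arrays was labelled ARID1A wild type, and a pair was labelled ARID1A knockout, made with a lentiviral Cas9 vector carrying 1 guide, puromycin selection and cloning by limiting dilution. The labels mention no vector, puromycin or cloning for the wild-type cells in particular, and leave unsaid whether replicates are separate cultures or clones, so the p-values reflect only array-to-array spread within a group, possibly just technical.

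An identity check found that 2 of the 4 arrays failed to match the remaining pair, so each group goes by its label, and ARID1A loss cannot be told apart from other differences between the cells. ARID1A mRNA read 8.55 and 8.61 in the wild type and 6.15 and 5.95 in the knockout-labelled arrays, which limma put at -2.53 ± 0.11 (difference and SE on the log2 scale, adjusted p = 0.00014). Keratins of bile duct epithelium were bright in both groups, with KRT7 at 12.42 and 12.48 against 10.13 and 10.14, and KRT19 at 11.34 and 11.55 against 10.52 and 10.51. Over the 9 measured biliary epithelial markers the mean level per array was 10.18 to 10.24 in the wild type and 8.91 to 9.03 in the knockout-labelled arrays, and 0 of the 9 lay under the array median in both groups. Of the 9, 1 rose and 5 fell, EPCAM most (-4.73 ± 0.11, adjusted p = 2.57e-05). The 1 that rose was the keratin KRT8 (0.82 ± 0.13, adjusted p = 0.00582). An adjusted p under 0.05 was reached by 66.7% of the 9 and by 38.7% of all genes. Among genes from the 40th percentile of mean level it was 63.0%. The leukocyte list (8 measured, 5 under the array median in both groups) averaged 3.50 to 3.54 against 3.28 to 3.55, and the endothelial list (8 measured, 6 under the median) 3.11 to 3.12 against 3.21 to 3.38. The fibroblast list (10 measured, 3 under the median) averaged 4.65 to 4.68 against 3.64 to 3.81, and the hepatocyte list (10 measured, 5 under the median) 4.06 to 4.14 against 4.23 to 4.54. In these 4 lists 0 rose and 1 fell (leukocyte), 1 rose and 0 fell (endothelial), 1 rose and 3 fell (fibroblast), and 4 rose and 1 fell (hepatocyte). In that order 12.5%, 12.5%, 40% and 50% had an adjusted p under 0.05, beside the 38.7% of all genes. The part of these markers in the results was not tested, and in bulk RNA fewer cells of a type cannot be told apart from less RNA per cell.

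PRC2 places methyl groups on lysine 27 of histone H3 through its catalytic subunit EZH2 or EZH1, held together by EED and SUZ12. PRC1 attaches ubiquitin to histone H2A through RING1 or its paralogue, paired with one of the PCGF proteins, and canonical PRC1 also carries a CBX protein that reads the PRC2 mark and a PHC protein that clusters the complexes. SWI/SNF remodelling and Polycomb repression are known as opposing activities on developmental genes. ASXL proteins, as cofactors of the BAP1 enzyme, help to remove ubiquitin from H2A, and KDM6B removes the PRC2 mark.

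Polycomb mRNAs went both ways between the groups, and mostly by less than 2-fold. With each gene represented by its brightest probe set, 11 of the 28 measured genes were higher in the knockout-labelled arrays, 4 were lower and 13 did not pass the threshold (limma, adjusted p under 0.05 over all genes). The highest rise was that of EZH2 (1.02 on the log2 scale, 2.03-fold) and the deepest fall that of PCGF5 (-1.25, 2.39-fold). Over all 19775 genes 38.7% were called, 21.5% higher and 17.2% lower, against 53.6% of the Polycomb genes. The groups did not overlap in 25 of the 28 genes, where 66.4% of all genes did not overlap. Only EZH2, RBBP7 and PCGF5 were called and at least 2-fold apart, 10.7% of the members against 16.6% of all genes. The median difference of the 28 was 0.23, beside 0.06 for all genes. With 1 array left out, 5 members (without wild-type replicate 1), 8 (without wild-type replicate 2 or knockout-labelled replicate 1) or 10 (without knockout-labelled replicate 2) were called, and EZH2, RBBP7, PCGF5, PHC2 and KDM2B were called in all 4 of these fits.

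Polycomb genes are brighter than most genes on the array, with 0 of the 28 under the array median in both groups, and brightness bears on how many genes are called. Among the 11865 genes from the 40th percentile of mean level upward 63.0% were called, beside 60.7% of the members (17 of 28). From the 60th percentile upward it was 73.7% of 7910 genes, beside 72% of the members (18 of 25). Above these minimum levels the share of Polycomb genes called was near that of all genes, and no excess of Polycomb changes is read from these counts. Their differences were smaller in size there, with 10.7% of the members called and at least 2-fold apart beside 23.4% of all genes from the 40th percentile, and 12% beside 21.4% from the 60th. The median size of the difference was 0.38 beside 0.47, and 0.40 beside 0.50. With no filter on level it was 0.38 beside 0.29, the other way round. The 2-fold shares of the members rest on 3 genes, and the differences in size were not tested.

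Among the 6 genes of the PRC2 core, the catalytic subunit EZH2 and the histone-binding subunit RBBP4 rose, while EED and RBBP7 fell and EZH1 and SUZ12 did not pass the threshold. EZH2 read 7.29 on both wild-type arrays and 8.25 and 8.38 on the knockout-labelled arrays. The groups lay clearly apart, with a log2 difference of 1.02 ± 0.10 (SE, adjusted p = 0.00143). EZH1, the other H3K27 methyltransferase, read 6.15 and 6.07 against 5.80 and 5.82, a difference of -0.30 ± 0.10 that missed the threshold (adjusted p = 0.0658), although the groups did not overlap. Its 95% interval ran from -0.55 to -0.05. A dimmer EZH1 probe set, 203249_at, passed at -0.50 ± 0.13 (adjusted p = 0.0433 over all probe sets), while the other 3 stood at 0.16, 0.00014 and -0.13. The mean of the 5 gave -0.15 (adjusted p = 0.272), and among genes from the 40th percentile of level EZH1 was called lower (adjusted p = 0.0268).

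EED, the subunit that binds the H3K27 mark and stimulates the enzyme, read 9.64 and 9.65 in the wild type and 9.19 and 9.21 in the knockout-labelled arrays. That is a small but tight fall of 0.45 on the log2 scale (SE 0.09, adjusted p = 0.0162), and the call was lost when any 1 of the 4 arrays was left out (adjusted p between 0.0519 and 0.111). Its other probe set, 210656_at, differed far more, at 5.24 and 4.94 against 2.96 and 2.68 (-2.27 ± 0.17, adjusted p = 0.00109 over all probe sets), the largest difference among the 89 Polycomb probe sets, and the mean of both probe sets gave -1.36. Which EED transcripts or exons each probe set reads was not determined here. SUZ12, the scaffold of PRC2, read 9.81 and 9.79 against 9.61 and 9.56, with a difference of -0.21 ± 0.09 (adjusted p = 0.146, 95% interval -0.45 to 0.03). SUZ12 was called lower with the mean of its 3 probe sets (-0.37, adjusted p = 0.0353), with an intensity trend (adjusted p = 0.0176) and among genes from the 60th percentile of level (adjusted p = 0.0334). Its probe set 1566191_at stood at -1.02 ± 0.29 (adjusted p = 0.06 over all probe sets).

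The paralogues RBBP4 and RBBP7 moved in opposite directions. These WD40 proteins bind histones and also sit in other chromatin complexes such as NuRD and CAF-1. RBBP4 read 9.86 and 9.91 in the wild type and 10.47 and 10.61 in the knockout-labelled arrays, a rise of 0.65 ± 0.10 (adjusted p = 0.00666). RBBP7 read 10.59 and 10.54 against 9.33 and 9.44, a fall of 1.18 on the log2 scale (SE 0.10, adjusted p = 0.000897). The RBBP7 call remained in every fit over genes that left out an array. The RBBP4 call was lost without either wild-type array (adjusted p = 0.0751 and 0.0632) and with the mean of its 6 probe sets, which gave 0.34 (adjusted p = 0.0857).

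**Figure D1:**
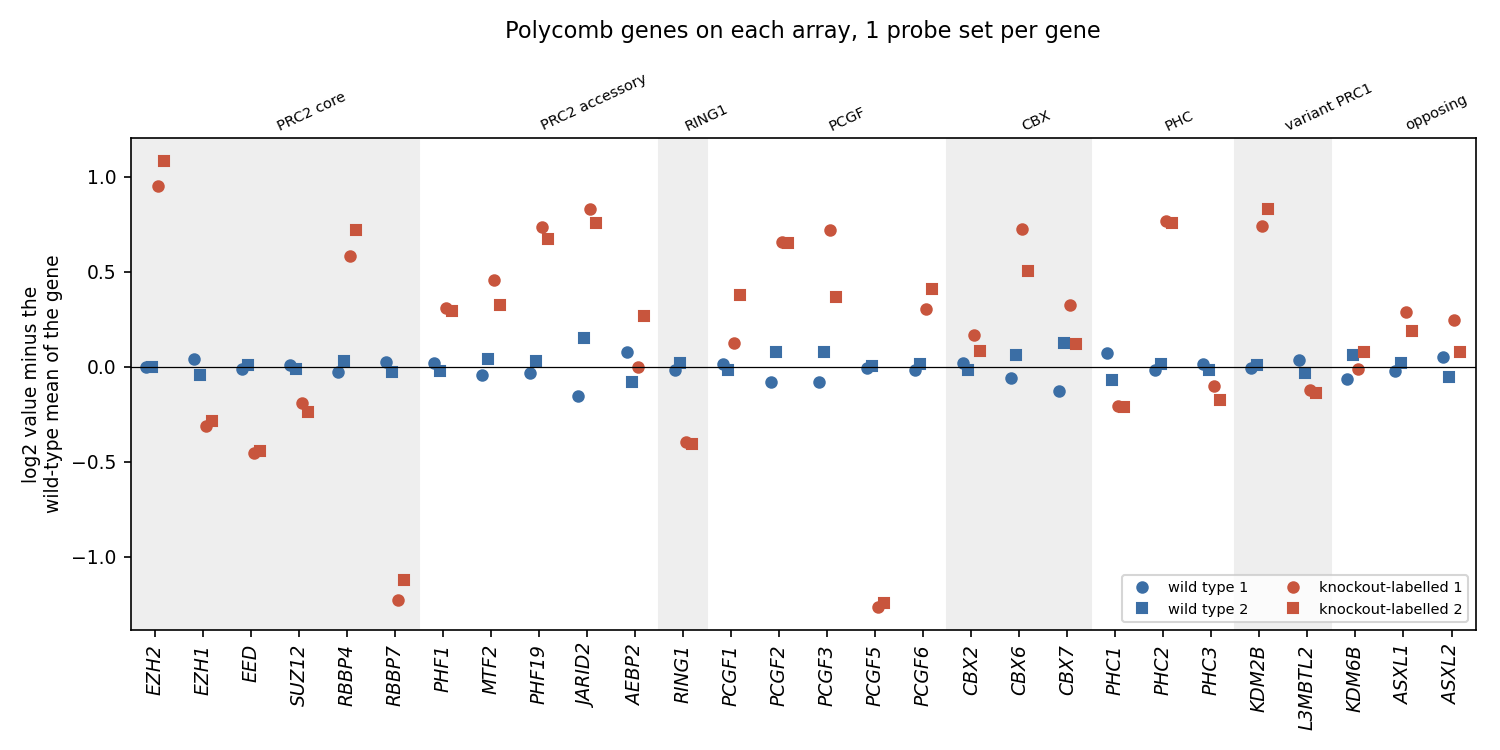
Log2 value of each array minus the wild-type mean of the same gene (vertical axis) for the 28 measured Polycomb genes, ordered by complex (shaded bands), with blue points for the wild-type and red points for the knockout-labelled arrays and circles and squares for replicates 1 and 2. EZH2 stands highest and RBBP7 and PCGF5 lowest among the red points, and the red points of KDM6B lie among the blue ones.

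Of the 5 PRC2 accessory proteins, 3 rose and 0 fell, beside 21.5% of all genes called higher and 17.2% lower. From the 40th percentile of level 63.0% of all genes were called in either direction, so no excess is read from 3 of 5. PHF19, a Polycomb-like protein that helps bring PRC2 to CpG islands, read 9.13 and 9.19 in the wild type and 9.89 and 9.83 in the knockout-labelled arrays (0.70 ± 0.10, adjusted p = 0.00403). All 3 of its probe sets rose, by 0.70, 0.70 and 1.15. MTF2, its paralogue, read 7.71 and 7.80 against 8.21 and 8.08 (0.39 ± 0.10, adjusted p = 0.0365). All 5 MTF2 probe sets were on the positive side, but when adjusted over all probe sets only 209705_at passed (0.71 ± 0.12, adjusted p = 0.0137) and the brightest did not (adjusted p = 0.0676). PHF1, the third Polycomb-like protein, read 8.34 and 8.31 against 8.64 and 8.62, a difference of 0.30 ± 0.09 just short of the threshold (adjusted p = 0.0583). PHF1 was called higher with an intensity trend (adjusted p = 0.00848) and among genes from the 40th or 60th percentile of level (adjusted p = 0.0226 and 0.00801).

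JARID2 and AEBP2 mark the other form of PRC2, which can read ubiquitinated H2A. JARID2 read 6.85 and 7.15 in the wild type and 7.83 and 7.76 in the knockout-labelled arrays, a rise of 0.79 ± 0.14 (adjusted p = 0.00846). The wild-type arrays lay 0.30 apart for this gene, and the call was lost without wild-type replicate 1 (adjusted p = 0.0613) and without either knockout-labelled array (0.0672 and 0.059). Its dimmest probe set, 240674_at, read 3.71 and 3.69 against 3.09 and 3.71, with means under the array median in both groups. This probe set stood at -0.30 and did not pass (adjusted p = 0.415). Without the probe sets marked _s_at it alone was left, so the direction turned. The mean of the 3 JARID2 probe sets gave 0.37 (adjusted p = 0.0323). AEBP2 overlapped between the groups, at 8.94 and 8.79 against 8.86 and 9.13 (0.13 ± 0.14, adjusted p = 0.516, 95% interval -0.22 to 0.48). Its other probe set, 235184_at, was dim, at 2.61 and 2.96 against 3.54 and 3.27, under the array median in both groups. This probe set stood at 0.62 with groups that did not overlap (adjusted p = 0.0615 over all probe sets). The mean of both AEBP2 probe sets was called higher (0.38, adjusted p = 0.0273).

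In PRC1, RING1, the ubiquitin ligase subunit, fell. It read 8.44 and 8.48 in the wild type and 8.07 and 8.06 in the knockout-labelled arrays (-0.40 ± 0.09, adjusted p = 0.024). Its second probe set, 208371_s_at, differed by -0.55 ± 0.11 (adjusted p = 0.0195 over all probe sets). The RING1 call of the brightest probe set was lost in each fit that left out an array (adjusted p between 0.0635 and 0.142).

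The PCGF proteins, which define the forms of PRC1, split in direction: 3 of 5 rose, PCGF5 fell and PCGF1 did not pass. That is 80% called, beside 38.7% of all genes and 63.0% of genes from the 40th percentile of level. No excess is read from these 5 genes. PCGF5, of the variant complex PRC1.5, read 9.06 and 9.07 in the wild type and 7.80 and 7.82 in the knockout-labelled arrays, a difference of -1.25 ± 0.09 (adjusted p = 0.000583) with hardly any spread within a group. Probe sets 235331_x_at (-1.28 ± 0.11, adjusted p = 0.00186) and 226326_at (-0.58 ± 0.12, adjusted p = 0.0226) of PCGF5 fell as well, while 227935_s_at stood at 0.36 ± 0.14 and did not pass (adjusted p = 0.138). The mean of the 5 PCGF5 probe sets gave -0.53 (adjusted p = 0.00961). PCGF2, also called MEL18 and part of canonical PRC1, read 7.54 and 7.70 against 8.28 and 8.27 (0.65 ± 0.11, adjusted p = 0.00694). All 4 probe sets of PCGF2 end in _x_at, the mark of probes that can also bind other transcripts, so its rise has no check from a gene-specific probe set here.

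PCGF3 and PCGF6 rose by less and less firmly. PCGF3, the closest relative of PCGF5, read 6.20 and 6.36 against 7.00 and 6.65 (0.54 ± 0.15, adjusted p = 0.0444). Its other 4 probe sets disagreed, with 238084_at called at 0.87 (adjusted p = 0.0418 over all probe sets) and the rest at -0.09, -0.22 and -0.26 without passing. The PCGF3 call was lost with the mean of the 5 probe sets (0.17, adjusted p = 0.381) and with _x_at and _s_at probe sets left out of the array (adjusted p = 0.0515). PCGF6, the subunit of PRC1.6, read 7.13 and 7.16 against 7.44 and 7.55 (0.36 ± 0.10, adjusted p = 0.042). Tested among all probe sets, the PCGF3 and PCGF6 values missed the threshold (adjusted p = 0.0697 and 0.0786), and PCGF6 also missed it after a second quantile normalization (adjusted p = 0.0613). PCGF1, of the CpG-island complex PRC1.1, read 6.36 and 6.34 against 6.47 and 6.73 (0.25 ± 0.12, adjusted p = 0.184).

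KDM2B, the CpG-binding subunit that brings PRC1.1 to CpG islands, rose from 7.10 and 7.12 to 7.85 and 7.94. Its difference of 0.79 ± 0.10 (adjusted p = 0.00282) rests on 1 probe set, and it stayed past the threshold in every fit over genes that left out an array. L3MBTL2, an MBT-domain subunit of PRC1.6, read 7.10 and 7.04 against 6.95 and 6.93 (-0.13 ± 0.10, adjusted p = 0.358, 95% interval -0.37 to 0.11).

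Of the CBX proteins, the readers of the H3K27 mark, CBX6 was called. It read 7.92 and 8.04 in the wild type and 8.70 and 8.48 in the knockout-labelled arrays (0.61 ± 0.12, adjusted p = 0.0142). Its second probe set, 202047_s_at, stood at 0.40 and did not pass (adjusted p = 0.141 over all probe sets). With 1 array left out the CBX6 difference ran from 0.50 to 0.72, and the call was kept only without knockout-labelled replicate 2. CBX7, which overlapped between the groups, read 5.38 and 5.64 against 5.83 and 5.63 (0.22 ± 0.14, adjusted p = 0.285). CBX2 read 6.24 and 6.20 against 6.39 and 6.31 (0.13 ± 0.10, adjusted p = 0.38). A dimmer CBX2 probe set, 240084_at, went the other way and passed, from 4.86 and 5.16 to 3.85 and 4.13 (-1.02 ± 0.17, adjusted p = 0.0114 over all probe sets).

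Of the PHC proteins, whose SAM domains join PRC1 complexes to each other, PHC2 rose. It read 9.11 and 9.14 against 9.90 and 9.89, a difference of 0.76 ± 0.09 (adjusted p = 0.00274) that kept its call in each fit over genes without an array. Its other probe sets were dimmer and stood at -0.01 and -0.85 without passing, so the mean of the 3 probe sets turned the direction (-0.03, adjusted p = 0.888). PHC1 read 6.61 and 6.46 against 6.33 and 6.32 (-0.21 ± 0.10, adjusted p = 0.186). PHC3 read 9.24 and 9.21 against 9.13 and 9.05 (-0.14 ± 0.10, adjusted p = 0.34), while its dimmer probe set 1552644_a_at fell from 4.99 and 5.22 to 3.86 and 4.04 (-1.16 ± 0.14, adjusted p = 0.00469), and the mean of its 5 probe sets was called lower (-0.44, adjusted p = 0.0259).

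None of the 3 listed antagonists, KDM6B, ASXL1 and ASXL2, was called by its brightest probe set. KDM6B, the H3K27 demethylase JMJD3, read 5.89 and 6.02 in the wild type and 5.94 and 6.03 in the knockout-labelled arrays (0.03 ± 0.10, adjusted p = 0.848). The arrays of both groups interleaved, and the 95% interval of the difference, -0.24 to 0.30, leaves out a 2-fold change in either direction. Its other 4 probe sets lay between -0.16 and 0.08, and 0 of the 5 were called. Of the 4, 1556066_at, 1556067_a_at and 213146_at were dim, with means under the array median in both groups, and add little to this reading. ASXL1 read 7.24 and 7.28 against 7.55 and 7.45 (0.24 ± 0.10, adjusted p = 0.124) and ASXL2 read 7.44 and 7.33 against 7.63 and 7.46 (0.16 ± 0.11, adjusted p = 0.332). ASXL1 was called higher among genes from the 60th percentile of level (adjusted p = 0.0272), while the mean of its 6 probe sets stood at -0.31 (adjusted p = 0.185). Single probe sets passed in each, 244519_at of ASXL1 downward (-0.76 ± 0.13, adjusted p = 0.0124) and 226251_at of ASXL2 upward (0.45 ± 0.11, adjusted p = 0.0429).

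Tested one by one, 18 of the 89 Polycomb probe sets were higher and 12 lower, beside 26.9% of all 54613 probe sets called (13.9% higher, 13.0% lower). The groups did not overlap in 62 of the 89 (60.3% of all probe sets), and 8 were called and at least 2-fold apart (13.1% of all). Without either wild-type array, 1 Polycomb probe set was called, 210656_at of EED, and 17 or 14 were called without knockout-labelled replicate 1 or 2. Of the 23 genes with several probe sets, PHF19, EED and RING1 had all of them called in one direction, 13 had some called, 7 had none, and 0 had probe sets called in opposite directions. EZH1, CBX2, PHC3, ASXL1 and ASXL2, not called by their brightest probe set, each had 1 dimmer probe set called. Where the probe sets of a gene lie along its transcripts was not determined, so these differences within a gene are given as values only.

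Paralogues can take the same place in a complex, so the balance of paralogues, and of the partners JARID2 and AEBP2, was compared within each array, as the log2 value of one minus that of the other. Probe sets differ in brightness for the same amount of RNA, so the change of this ratio between groups is read and not its level. Of 13 planned pairs 10 could be measured, and the groups did not overlap in 8 of them. Among single genes the groups did not overlap in 66.4%. No share over other pairs of genes was computed, so the 8 are not read as an excess. With 2 arrays against 2, the exact two-sided permutation test cannot go below 0.333, which is 0.417 after adjustment over the 10 pairs, so none could pass.

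RBBP4 over RBBP7 moved most, from -0.73 and -0.62 in the wild type to 1.14 and 1.16 in the knockout-labelled arrays (a change of 1.83, 3.55-fold). The ratio of PCGF3 to PCGF5 went from -2.86 and -2.71 to -0.80 and -1.17 (1.80, 3.48-fold), but the change was 0.70 with the mean of each gene's probe sets. EZH2 over EZH1 went from 1.14 and 1.23 to 2.45 and 2.56 (1.32, 2.49-fold). In these 3 pairs the change between groups was several times the gap between the arrays of a group, which was at most 0.37. PHC1 over PHC2 changed by -0.97 and PHC2 over PHC3 by 0.90, both resting on the bright PHC2 probe set, and with the mean of probe sets by -0.099 and 0.40. Smaller shifts of 0.66 for JARID2 over AEBP2, 0.40 for PHF19 over PHF1 and 0.31 for PHF19 over MTF2 had groups that did not overlap. Of these, JARID2 over AEBP2 turned direction both with the mean of probe sets (-0.0078) and without _x_at and _s_at probe sets (-0.44), and PHF19 over MTF2 without the latter (-0.012). With the mean of probe sets PHF19 over PHF1 changed by 0.66 and PHF19 over MTF2 by 0.50. The ratios of CBX2 to CBX7 (-0.10) and of ASXL1 to ASXL2 (0.08) overlapped between groups (exact permutation p = 0.667 each), and with the mean of probe sets stood at -0.49 and -0.26.

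**Figure D2:**
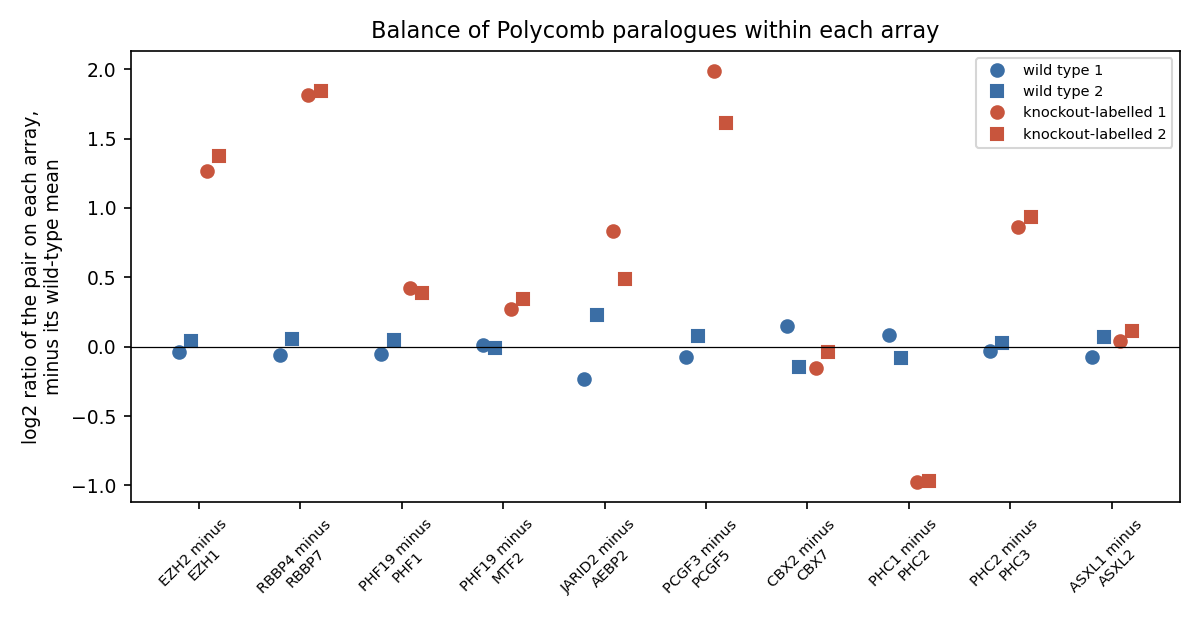
Log2 ratio of each of 10 pairs of paralogues or partners on each array, minus the wild-type mean of that pair (vertical axis), with blue points for the wild-type and red points for the knockout-labelled arrays and circles and squares for replicates 1 and 2. The red points of RBBP4 minus RBBP7, PCGF3 minus PCGF5 and EZH2 minus EZH1 stand farthest above 0, those of PHC1 minus PHC2 lie below it, and those of CBX2 minus CBX7 and ASXL1 minus ASXL2 fall among or next to the blue ones.

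The promoters of the 3 pairs whose balance differed most are printed for reference; which start site these cells use was not measured. Each is the 250 bases before the most upstream start in RefSeq on GRCh38.p14, written 5′ to 3′ on the strand of the gene, and 29 of the 31 listed genes have an entry in that table. EZH2 lies on the minus strand at chr7:148884292-148884541 and EZH1 on the minus strand at chr17:42745041-42745290. RBBP4 lies on the plus strand at chr1:32650958-32651207 and RBBP7 on the minus strand at chrX:16870363-16870612. PCGF3 lies on the plus strand at chr4:705582-705831 and PCGF5 on the plus strand at chr10:91162743-91162992. Capitals mark CCAAT boxes (CCAAT on either strand) and E2F motifs (TTTCCCGC, TTTCGCGC, TTTGCCGC or TTTGGCGC on either strand).
EZH2: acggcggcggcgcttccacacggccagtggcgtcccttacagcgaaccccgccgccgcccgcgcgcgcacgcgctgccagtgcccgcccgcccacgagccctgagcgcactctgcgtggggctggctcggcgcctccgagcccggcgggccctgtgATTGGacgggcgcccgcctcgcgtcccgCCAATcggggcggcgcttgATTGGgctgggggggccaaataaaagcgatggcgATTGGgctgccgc
EZH1: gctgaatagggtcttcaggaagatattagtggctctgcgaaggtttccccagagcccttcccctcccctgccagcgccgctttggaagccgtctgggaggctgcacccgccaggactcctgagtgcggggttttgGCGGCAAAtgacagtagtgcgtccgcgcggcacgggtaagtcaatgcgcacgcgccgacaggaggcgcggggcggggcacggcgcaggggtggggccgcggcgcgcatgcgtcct
RBBP4: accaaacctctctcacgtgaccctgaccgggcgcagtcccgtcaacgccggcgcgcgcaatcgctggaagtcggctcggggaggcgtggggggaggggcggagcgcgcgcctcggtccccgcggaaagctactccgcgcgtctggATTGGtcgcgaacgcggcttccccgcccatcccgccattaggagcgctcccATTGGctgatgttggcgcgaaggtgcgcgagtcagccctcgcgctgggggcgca
RBBP7: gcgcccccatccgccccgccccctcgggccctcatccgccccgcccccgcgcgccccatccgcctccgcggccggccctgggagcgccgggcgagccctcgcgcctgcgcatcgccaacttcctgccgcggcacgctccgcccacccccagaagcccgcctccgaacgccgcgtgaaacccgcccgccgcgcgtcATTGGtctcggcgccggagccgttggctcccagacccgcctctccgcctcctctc
PCGF3: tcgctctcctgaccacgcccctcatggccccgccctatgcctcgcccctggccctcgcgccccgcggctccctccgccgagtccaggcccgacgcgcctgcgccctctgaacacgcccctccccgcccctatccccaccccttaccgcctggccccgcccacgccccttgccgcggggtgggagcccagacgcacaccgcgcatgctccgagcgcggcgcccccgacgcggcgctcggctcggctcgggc
PCGF5: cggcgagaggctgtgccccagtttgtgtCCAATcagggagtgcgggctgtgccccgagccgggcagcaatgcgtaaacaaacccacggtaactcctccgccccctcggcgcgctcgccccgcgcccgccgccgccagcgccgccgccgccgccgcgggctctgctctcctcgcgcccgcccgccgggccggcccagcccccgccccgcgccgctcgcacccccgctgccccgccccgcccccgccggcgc

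All 6 windows were rich in G and C, with 67.6% to 80.8% G or C and 26 to 41 CpG dinucleotides, where the median over the 35116 promoter windows of the table was 58.0% and 11. EZH2 held 4 CCAAT boxes in its window, RBBP4 held 2, RBBP7 and PCGF5 held 1 each, and EZH1 and PCGF3 held 0. Over all promoters 32.0% held at least 1 CCAAT box, and 13 of the 29 Polycomb promoters did (44.8%). An E2F motif was found in EZH1 alone among the 6, in 4 of the 29 Polycomb promoters (13.8%) and in 2.79% of all promoters. These letters are a description of the windows, not binding sites. The Polycomb shares take 1 window per gene, while those over all promoters take every start in the table. Shares over windows of like G and C content were not computed, so no excess of either motif is read. The ETS motif CCGGAAG and the palindromic NRF1 motif were in none of the 6 windows on either strand, while 8.52% and 1.03% of all promoters held them.

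Other genes of the pathway also went both ways. Of 27 measured further Polycomb subunits and partners, 9 rose and 4 fell, with a median difference of 0.15. That is 48.1% called, beside 38.7% of all genes and 63.0% of genes from the 40th percentile of level. Of the 27, 0 lay under the array median in both groups. SCML1, a sex-comb-on-midleg-like protein, read 5.97 and 6.19 against 3.92 and 3.79 (-2.23 ± 0.12, adjusted p = 0.000237). USP7, a deubiquitinase that binds PRC1 complexes, read 8.22 and 8.13 against 9.34 and 9.23 (1.11 ± 0.10, adjusted p = 0.00115). The remaining largest were the MBT-domain protein SFMBT2 (-1.35 ± 0.23, adjusted p = 0.00808) and MAX, a DNA-binding partner in PRC1.6 and of MYC (-0.999 ± 0.098, adjusted p = 0.00138).

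Of 26 further regulators that oppose Polycomb, 8 rose and 2 fell, with a median difference of 0.27. That is 38.5% called, beside 63.0% of genes from the 40th percentile of level, and 0 of the 26 lay under the array median in both groups. WDR5, a core subunit of the H3K4 methyltransferase complexes, read 7.65 and 7.85 against 8.94 and 9.04 (1.24 ± 0.12, adjusted p = 0.00119), and MBD5, a partner of the BAP1 complex, rose by 1.11 ± 0.12 (adjusted p = 0.00171). MEN1 and KMT2A, which work together in one such methyltransferase complex, both fell (-1.13 ± 0.10, adjusted p = 0.000906, and -1.04 ± 0.10, adjusted p = 0.00128).

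Developmental regulators that Polycomb holds silent in stem cells were mostly dim, with 19 of 36 measured genes under the array median in both groups. Of the 36, 6 rose and 5 fell, with a median difference of 0.015. That is 30.6% called, beside 38.7% of all genes, so no excess is read from this count. PAX2, a kidney and ear lineage factor, read 2.45 and 3.11 against 7.09 and 7.16 (4.34 ± 0.23, adjusted p = 0.000215), and IRX3 rose from 3.12 and 3.15 to 6.23 and 6.56 (3.26 ± 0.14, adjusted p = 0.000118). ISL1 went the other way, from 6.22 and 6.37 to 2.56 and 2.74 (-3.64 ± 0.12, adjusted p = 6.21e-05), and so did WT1, from 4.73 and 4.91 to 2.25 and 2.28 (-2.56 ± 0.11, adjusted p = 0.00012). PAX2 and IRX3 thus went from under the array median to above it, and ISL1 and WT1 the reverse. Histone marks at them were not measured.

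EZH2 and RBBP4 are known to follow cell division, so proliferation genes are given beside them. Of 20 measured, 7 rose and 6 fell (65.0% called, beside 63.0% of genes from the 40th percentile of level). Their median difference was 0.02, with array means of 9.19 to 9.20 in the wild type and 9.23 to 9.28 in the knockout-labelled arrays. TYMS, a nucleotide synthesis enzyme, rose by 1.67 ± 0.10 (adjusted p = 0.000268) and the S-phase activator E2F2 by 1.23 ± 0.11 (adjusted p = 0.000923). CCNB1, the mitotic cyclin B1, differed by -1.02 ± 0.09 (adjusted p = 0.0011) and the proliferation marker MKI67 by -0.80 ± 0.10 (adjusted p = 0.00324). The part of cell division in the Polycomb differences was not tested.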

How the data were processed

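RNA from 4 arrays was read from the deposited table of log2 values, 1 column per array, which the authors made with RMA and the affy package per the submitters' processing notes (versions not stated). RMA subtracts background, equalises the arrays by quantiles, condenses each probe set into 1 value and gives no detection call. Array medians were 3.99 to 4.03. Probe sets were named by the platform annotation of the array (1 symbol for 41091, several for 1801, none for 11721), and a gene was represented by its probe set with the highest mean. The comparison used R 4.3.3 and limma 3.58.1 (lmFit, eBayes, no covariate, no filter), adjusted by Benjamini-Hochberg over all genes or, where said, over all probe sets and called under 0.05. A difference is the knockout-labelled mean less the wild-type mean, in log2 units, given with its moderated SE. Intervals are 95% intervals of limma. The code was tested on simulated data. Paralogue ratios were compared by exact permutation. Alternatives were other probe set choices, level filters, scalings, a mean trend, a replicate block and leaving out each array. The members, lists and alternatives were chosen with earlier results of these data known. Named were ARID1A, each member, and up to 4 called genes of each other list. The number of arrays limits the precision.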

Additional observations from a re-analysis of the deposited data

How the results depend on the processing

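Calls of EZH2, RBBP7, PCGF5 and KDM2B remained in every setting with 1 value per gene that could include them, and in the main fit over all probe sets. They were lost in the fits over all probe sets without either wild-type array. EZH2 and KDM2B, with CBX6, PCGF2 and PCGF6, have only _x_at or _s_at probe sets. Leaving out 1 array gave 5 to 10 called members in place of 15, 1 to 17 called member probe sets in place of 30 (the 1 left without either wild-type array was 210656_at of EED) and 3939 to 6220 called genes in place of 7657. With _x_at and _s_at probe sets removed, 8 of 23 members and 14 of 61 member probe sets were called, JARID2 turned to -0.30, PHF19 over MTF2 to -0.012 and JARID2 over AEBP2 to -0.44. With probe sets averaged per gene, the differences of PHC2 (-0.033), CBX2 (-0.27), KDM6B (-0.045), ASXL1 (-0.31) and ASXL2 (-0.047) turned negative, as did JARID2 over AEBP2 (-0.0078) and ASXL1 over ASXL2 (-0.26). The averaging also gained calls for SUZ12, AEBP2 and PHC3 and lost those of RBBP4 and PCGF3. Calls were gained for SUZ12 and PHF1 with the intensity trend, for EZH1 and PHF1 from the 40th percentile of level, and for SUZ12, PHF1 and ASXL1 from the 60th. Of the single genes that turned in either setting, PHC2 and JARID2 had been called. Leave-one-out values ran from -0.0025 to 0.27 for AEBP2, from -0.031 to 0.10 for KDM6B and from -0.24 to 0.051 for CBX2 over CBX7. The alternatives for these ratios of pairs were added after seeing the data. Same-numbered arrays share only a number. The replicate block gave 11 called members, 23 member probe sets and 6679 genes, and lost the calls of MTF2, RING1, PCGF3 and PCGF6. Deviations of same-numbered arrays correlated at -0.10 across genes, and the crossed replicate block, chosen after seeing the data, gave 14, 22 and 7301.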

Other observations

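Several of the dimmer Polycomb probe sets read lower on knockout-labelled replicate 2 than on replicate 1. A gap of at least 0.5 on the log2 scale was seen in 9 of the 89 probe sets in that direction (10.1%) and in 3 in the other, beside 6.22% and 4.60% of all probe sets, and in 2 each way between the wild-type arrays. The 9 belong to PCGF3, PHC2, ASXL1 (2 probe sets), RBBP4 (2 probe sets), SUZ12, ASXL2 and PHC3. All of them but 237333_at of RBBP4 also read lower on wild-type replicate 2 than on wild-type replicate 1, with smaller gaps from -0.36 to -0.14. PHC2 probe set 1557852_at, for example, read 6.18 and 5.92 in the wild type and 5.72 and 4.68 in the knockout-labelled arrays. None of the 9 is the brightest probe set of its gene, and 0 of them passed the threshold. They were picked by a wide gap between replicates, which raises the SE, so nothing is read from that count. The cause of the gap was not tested.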
